A study of Homo sapiens with 108 samples.

Results

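The day 4 response of the Pfeiffer lymphoma line to EPZ6438 was set against that of 3 lymphoma lines that carry a mutation at residue Y641 of EZH2, namely WSU-DLCL2, SU-DHL6 and Karpas422. EPZ6438 (tazemetostat) is an inhibitor of the histone methyltransferase EZH2. The comparison is defined by line, dose and day, and it was chosen with earlier results of these data known. It takes 24 arrays, in 8 groups of 3 of the 36 groups in the series: each line with DMSO and each line with EPZ6438 at 10xLCC, all at day 4. The quantity of interest is the change in Pfeiffer (10xLCC minus DMSO, in log2 units) minus the mean of the same change in the 3 Y641 lines, here called the difference in response. Across the series the 4 lines were also treated at LCC, and RNA was taken at days 2, 4 and 6, with 3 arrays (A, B and C) in each group.

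The labels describe Pfeiffer as a line without the Y641 mutation; from general knowledge it carries another EZH2 mutation in the same catalytic domain. LCC is set for each line, no source used here gives its concentration, and 10xLCC need not be the same concentration in any pair of lines. A difference in response between lines therefore cannot be told apart from a difference in concentration, and Pfeiffer is 1 line, so it cannot stand for lymphoma lines without Y641 in general. The labels do not say whether A, B and C were separate cultures, so every p-value here measures only the spread between these arrays, which may be technical.

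EZH2 is the catalytic subunit of Polycomb repressive complex 2 (PRC2), which methylates lysine 27 of histone H3 and keeps the genes that carry this mark silent. In germinal centre B cells, from which these lymphomas derive, EZH2 is highly expressed and holds back cell cycle inhibitors and genes of B cell exit and differentiation. Y641 mutations change the substrate preference of the enzyme so that trimethylated H3 accumulates, and inhibition of EZH2 is known to raise genes that were silenced in this way.

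Values were GCRMA intensities from Affymetrix arrays, taken to log2. Over the 24 arrays the median probe set lay between 6.28 and 6.38 and the upper quartile between 7.91 and 8.20. RNA integrity, read as the log2 signal of 3' actin control probe sets minus that of 5' ones, ran from -0.14 to 0.08. A gene was represented by its brightest probe set, 18979 genes were tested, and a change was called at an adjusted p (limma, Benjamini-Hochberg over all genes tested) below 0.05. The B cell markers MS4A1, CD79A, CD79B, PAX5 and CD22 had mean levels of 8.39 or more in Pfeiffer, against a median gene of 7.31. All 5 myeloid markers tested lay below the median gene in every line. Pfeiffer also showed CD8A, the T cell co-receptor chain, at 13.3 and EPCAM, an epithelial adhesion protein, at 11.9, while the 6 other T cell markers lay below its median gene. None of the markers of B cells, T cells, myeloid, epithelial or stromal cells was called changed in Pfeiffer; their summed log2 levels with DMSO and with 10xLCC were 14.5 to 14.6 and 14.6 to 14.7 for B cells, 13.3 to 13.5 and 13.2 to 13.3 for T cells, 8.14 to 8.40 and 8.10 to 8.35 for myeloid cells, and 12.3 to 12.5 and 12.2 to 12.4 for epithelial and stromal cells. The part of these levels in the results was not tested.

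The promoters of 4 example genes are shown first, as the 250 bases before the RefSeq start on GRCh38.p14, read 5′ to 3′. ABAT, which encodes the enzyme that degrades the inhibitory transmitter GABA, had the largest negative difference in response, and PRKCB, which encodes the protein kinase C isoform of B cell receptor signalling, was called down in Pfeiffer and up in the Y641 lines. In both, CG dinucleotides are in capitals, since Polycomb targets are known for CG-rich promoters.

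ABAT, chr16:8674367-8674616, plus strand: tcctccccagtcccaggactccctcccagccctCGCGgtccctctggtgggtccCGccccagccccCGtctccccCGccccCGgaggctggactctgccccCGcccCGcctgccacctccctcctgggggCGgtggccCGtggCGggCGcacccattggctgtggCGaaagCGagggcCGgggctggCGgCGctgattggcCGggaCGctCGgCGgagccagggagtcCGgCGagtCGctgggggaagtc

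PRKCB, chr16:23835733-23835982, plus strand: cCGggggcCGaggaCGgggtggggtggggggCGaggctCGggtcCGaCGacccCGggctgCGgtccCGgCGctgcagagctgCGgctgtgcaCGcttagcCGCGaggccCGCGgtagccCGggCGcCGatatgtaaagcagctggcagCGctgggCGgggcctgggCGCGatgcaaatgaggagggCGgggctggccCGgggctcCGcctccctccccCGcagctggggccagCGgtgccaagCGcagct

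The ABAT window holds 24 CG dinucleotides, a number that 23.3% of the 27305 RefSeq promoter windows reach, and the PRKCB window holds 30, which 12.2% reach. Among genes with a difference in response of -1 or lower, 213 of 261 had a window, with a median of 23 CG dinucleotides, against 18 over the 14802 tested genes with a window. The 38 windows of the 49 genes called in Pfeiffer had a median of 17. A high count was not particular to the lower genes: the 29 windows of DNA replication genes had a median of 24. The 80 windows of genes with a difference of 1 or higher had a median of 19, near the 18 of all tested genes.

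MCM7 and MCM6 encode subunits of the helicase that opens replication origins, and both were called down in each of the 3 Y641 lines. They were picked among DNA replication genes whose window matches a word given next. Of those genes they had the largest differences in response after TYMS (0.75), beside a median of 0.69 for the whole list. The matches shown in MCM7 and MCM6 are therefore no result. In their windows the letters in capitals match any of TTTGGCGC, TTTGCCGC, TTTCGCGC or TTTCCCGC on either strand, words that E2F factors are known to bind; each word also contains CG.

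MCM7, chr7:100101398-100101647, minus strand: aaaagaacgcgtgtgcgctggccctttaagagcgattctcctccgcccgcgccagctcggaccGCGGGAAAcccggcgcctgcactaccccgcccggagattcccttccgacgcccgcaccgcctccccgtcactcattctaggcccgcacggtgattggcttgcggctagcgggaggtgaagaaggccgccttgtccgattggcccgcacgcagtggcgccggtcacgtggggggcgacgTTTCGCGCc

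MCM6, chr2:135876444-135876693, minus strand: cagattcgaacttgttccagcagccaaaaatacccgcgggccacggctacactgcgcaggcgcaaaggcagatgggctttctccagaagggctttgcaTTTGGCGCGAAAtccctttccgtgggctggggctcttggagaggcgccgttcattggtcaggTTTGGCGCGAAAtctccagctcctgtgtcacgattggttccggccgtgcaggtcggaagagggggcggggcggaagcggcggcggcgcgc

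Such a word occurred in 12 of the 29 windows found for the DNA replication genes described below (41.4%), in 3.74% of the windows of all genes tested and in 2.79% of all windows. It occurred in 8 of 80 windows of genes with a difference of 1 or higher, 6 of 213 of those at -1 or lower (2.82%), 3 of 22 of the interferon response genes (13.6%), 2 of 26 of the mitosis genes (7.69%), none of 12 of the MHC class II genes and none of 38 of genes called in Pfeiffer. A match describes letters in a window and is no evidence of binding.

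Pfeiffer changed little. At day 4, 49 of 18979 genes (0.258%) were called in Pfeiffer, of which 36 rose (0.190%) and 13 fell (0.0685%). In the same fit 5340 genes (28.1%) were called in WSU-DLCL2, with 15.9% of all genes up and 12.3% down. SU-DHL6 had 3389 (17.9%), with 9.69% up and 8.16% down, and Karpas422 had 4840 (25.5%), with 10.3% up and 15.2% down. The 10xLCC array C of Karpas422 stood farthest from its group of the 24 arrays, and without it the Karpas422 calls went from 1958 up and 2882 down to 2206 up and 2002 down. The mean of the 3 lines had 34.0% called, 16.7% up and 17.3% down. The root mean square change over all genes was 0.18 in Pfeiffer, against 0.49 for WSU-DLCL2, 0.34 for SU-DHL6 and 0.40 for Karpas422. The count in Pfeiffer depended on single arrays. It ranged from 11 without the DMSO array B of Pfeiffer to 149 without the 10xLCC array C of Karpas422. In Pfeiffer 2264 genes (11.9%) had an unadjusted p below 0.05 by limma. Such day 4 counts in the lists below are read against this share. Calls within a Y641 line in those lists are read against the shares of that line given above.

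The difference in response was called for 2747 genes (14.5%). It was lower in Pfeiffer for 1383 (7.29%) and higher for 1364 (7.19%), and it reached at least 1 log2 unit for 261 lower genes (1.38%) and 101 higher genes (0.532%). Of the 1383 lower genes, 1281 had a called rise in the mean of the Y641 lines and no called change in Pfeiffer. Of the 1364 higher genes, 1216 had a called fall in that mean and no called change in Pfeiffer. Over all genes, 16.7% were called up and 17.3% down in that mean, and 0.258% were called in Pfeiffer. The Pfeiffer change lay outside the range of all 3 Y641 lines for 1170 of the lower and 1227 of the higher genes, against 50.1% of all genes tested. The same changes define the difference, this range and the calls in Pfeiffer and in the Y641 mean. Nothing is therefore read from the counts of 1281, 1216, 1170 and 1227. Fewer genes differed from every line when each was tested singly, 248 lower and 141 higher genes. With arrays centred on bright genes, 1222 genes were higher and 2348 lower in the difference. That scaling moved the median change over all genes from -0.04 to 0.13 in Karpas422, and its calls from 1958 up and 2882 down to 3510 and 1864. It moved those of WSU-DLCL2 from 3011 and 2329 to 3968 and 2177, those of SU-DHL6 from 1840 and 1549 to 2644 and 1280, and those of the Y641 mean from 3168 and 3286 to 5200 and 2270.

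**Figure D1:**
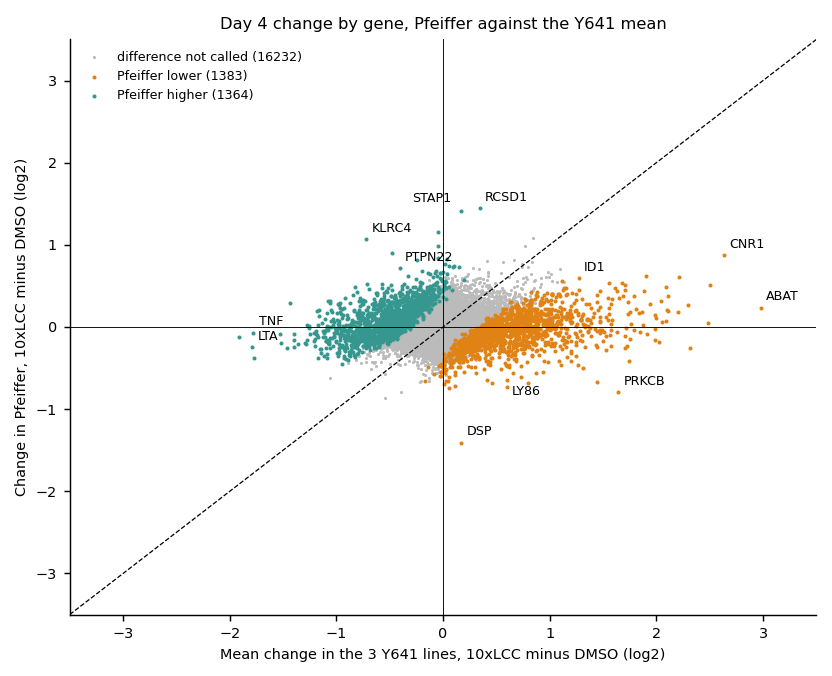
Change at day 4 (10xLCC minus DMSO, log2) for each of 18979 genes, with the mean of the 3 Y641 lines on the horizontal and Pfeiffer on the vertical axis; colours mark the 1383 genes whose difference was called lower and the 1364 called higher, and the dashed line marks equal change. The coloured clouds spread along the horizontal axis, and few genes lie far from 0 in Pfeiffer.

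Among genes that rose in the Y641 lines and not in Pfeiffer, ABAT differed most. In Pfeiffer it measured 7.20, 7.22 and 6.98 with DMSO and 7.45, 7.19 and 7.48 at 10xLCC. It went from 6.74, 7.06 and 7.03 to 9.54, 9.91 and 10.05 in WSU-DLCL2, and from 5.92, 6.01 and 5.83 to 8.90, 9.07 and 8.91 in SU-DHL6. In Karpas422 it went from 6.73, 6.70 and 6.94 to 9.79, 9.93 and 9.65. The arrays of both treatments overlapped in Pfeiffer and were separate in each of the other lines. The change was 0.24 ± 0.13 (SE, n = 3 arrays a group; adjusted p = 0.47) in Pfeiffer and 2.98 ± 0.07 in the Y641 mean, so the difference was -2.74 ± 0.15 (adjusted p = 4.28e-12).

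SEPTIN8, a cytoskeletal GTPase, followed with a difference of -2.57. Here the DMSO levels were far apart. Pfeiffer had 11.30, 11.43 and 11.15 with DMSO and 11.00, 11.04 and 11.07 at 10xLCC, whereas the 9 arrays of the Y641 lines had 4.86 to 6.19 (median 5.54) with DMSO and 7.65 to 8.28 (median 7.93) at 10xLCC. The Y641 lines thus stayed below Pfeiffer after treatment. SH3BP5, an adaptor that binds BTK, differed by -2.15 and was also higher in Pfeiffer with DMSO, by 3.53 on the separate DMSO arrays of day 2. ID2, which blocks E proteins, differed by -2.01 and was 4.03 higher there, and SLC22A5, the carnitine transporter, differed by -2.02 and was 3.10 higher. Of the 2 probe sets of SLC22A5, 1 had a lower difference.

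Other genes had a similar or lower DMSO level in Pfeiffer. RAPGEF2, an activator of the GTPase RAP1, changed by -0.19 in Pfeiffer and 2.02 in the Y641 mean, with a day 2 DMSO level 0.37 higher in Pfeiffer that did not pass the test (adjusted p = 0.13). ELK3, a transcription factor of the ETS family, differed by -2.17, SETBP1 by -2.03 and the adhesion molecule CEACAM1 by -2.02. The changes of FNDC1, an extracellular matrix protein, were -0.67 in Pfeiffer (adjusted p = 0.054) and 1.45 in the Y641 mean. TMEM200A differed by -2.44, and here the Y641 mean rested on 2 lines, with 2.13 for WSU-DLCL2, 5.25 for SU-DHL6 and 0.06 for Karpas422. BACH2, a repressor that holds B cells in the germinal centre programme, differed by -1.89, with a DMSO level at day 2 that was 4.57 lower in Pfeiffer.

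In the opposite group, TNF and LTA, cytokine genes that lie next to each other, fell in every Y641 line. TNF in Pfeiffer measured 7.52, 7.40 and 7.35 with DMSO and 7.40, 7.11 and 7.56 at 10xLCC. It went from 9.03, 9.15 and 9.11 to 7.66, 7.78 and 7.81 in WSU-DLCL2, and from 9.58, 9.57 and 9.64 to 8.22, 8.39 and 8.21 in SU-DHL6. In Karpas422 it went from 10.23, 10.34 and 10.32 to 7.82, 7.86 and 7.21. With DMSO Pfeiffer lay below all 9 DMSO arrays of the other lines, and the treated Y641 arrays lay at 7.21 to 8.39. The difference was 1.71 ± 0.15 (adjusted p = 1.52e-08), and that of LTA was 1.54 ± 0.19 (adjusted p = 2.17e-06), with a change of -0.25 in Pfeiffer that was not called. LTB, the membrane partner of LTA, differed by 0.70 in 1 of its 2 probe sets.

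Among genes whose Pfeiffer change lay outside the range of the 3 Y641 lines, the largest positive differences beside TNF, LTA and KLRC4 were those of MNS1 (1.73), PIR (1.39), an immunoglobulin heavy chain variable gene (1.38), ESCO2 (1.38), MND1 (1.37), SGK1 (1.37), WDHD1 (1.36), CHEK1 (1.33) and RLIG1 (1.31); KLRC4 is described below. ESCO2 joins sister chromatids, WDHD1 acts at replication forks and CHEK1 is the replication checkpoint kinase. CHEK1 changed by -0.19 in Pfeiffer and by -2.21, -0.74 and -1.62 in WSU-DLCL2, SU-DHL6 and Karpas422. Apart from RLIG1, all of these changed most in WSU-DLCL2. SGK1, a kinase induced by glucocorticoids, changed by -2.81 there and by -0.25 and -0.12 in the other lines, and without WSU-DLCL2 its difference was 0.50 (adjusted p = 0.13). The probe set of the immunoglobulin gene may also bind other variable genes.

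**Figure D2:**
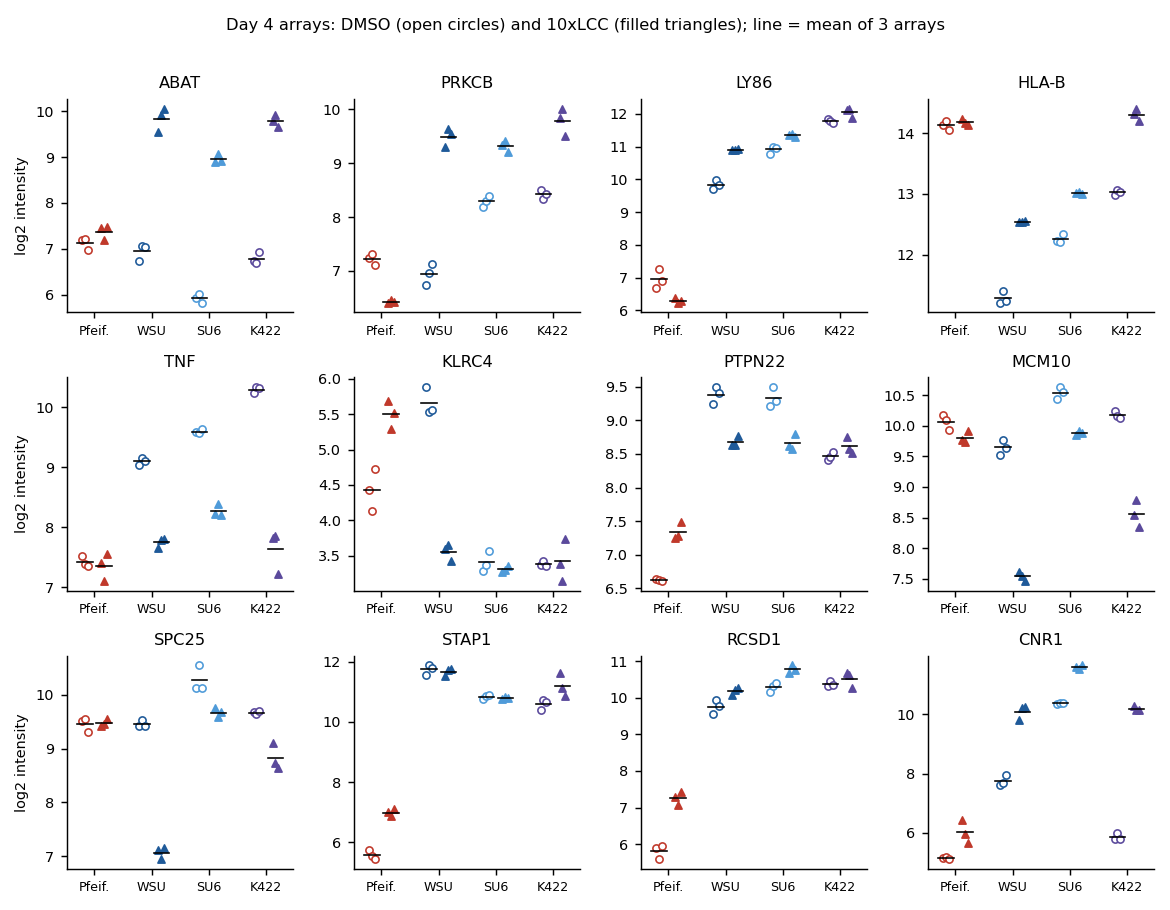
Log2 intensity of 12 genes on each day 4 array, with DMSO as open circles, 10xLCC as filled triangles and the mean of 3 arrays as a line; the horizontal axis gives the line (Pfeif. for Pfeiffer, WSU for WSU-DLCL2, SU6 for SU-DHL6, K422 for Karpas422), and the vertical axes differ in range. ABAT, TNF and HLA-B overlap between treatments in Pfeiffer alone of the 4 lines, and STAP1 and RCSD1 rise there from levels far below the other lines.

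DNA replication genes fell widely in WSU-DLCL2 and Karpas422 and less so in SU-DHL6. Among 32 genes of DNA replication tested, all fell in WSU-DLCL2 and in Karpas422 and 25 did in SU-DHL6. None was called in Pfeiffer by limma, where 10 had an unadjusted p below 0.05, all with lower values. The difference was called higher for 31 of 32, against 7.19% of all genes, and its median was 0.69, against 0.00 over all genes. The median change of the list in Pfeiffer was -0.16 (range -0.29 to 0.22), beside -1.25, -0.37 and -0.90 in WSU-DLCL2, SU-DHL6 and Karpas422. Against SU-DHL6 alone 4 were called higher, against 30 for WSU-DLCL2 and 30 for Karpas422. In RNA from whole cultures, fewer dividing cells and less RNA per cell cannot be told apart.

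MCM10, which loads the replicative helicase, illustrates the list. Pfeiffer had 10.17, 10.09 and 9.93 with DMSO and 9.77, 9.74 and 9.91 at 10xLCC, a narrow separation with a change of -0.26 (adjusted p = 0.33). WSU-DLCL2 went from 9.53, 9.77 and 9.64 to 7.60, 7.55 and 7.46, SU-DHL6 from 10.45, 10.63 and 10.55 to 9.85, 9.91 and 9.88, and Karpas422 from 10.24, 10.17 and 10.13 to 8.55, 8.80 and 8.35. The difference was 1.20 ± 0.12 (adjusted p = 1.36e-07), and those of the origin factors ORC1 and CDC45 were 1.16 and 1.10. MCM7 and MCM6, shown above, differed by 0.72 and 0.71. GINS3, a helicase cofactor, was the gene whose difference of 0.25 was not called.

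All 30 mitosis genes were called higher in the difference, against 7.19% of all genes, with a median difference of 0.81. This count depended on WSU-DLCL2, where all 30 fell with a median of -1.83; 29 fell in Karpas422 and 7 in SU-DHL6. None was called in Pfeiffer, with 8 at an unadjusted p below 0.05, 7 of them with lower values. Without WSU-DLCL2 in the mean 11 were called, and against SU-DHL6 alone 1 was. The kinetochore genes SPC25 and NUF2 differed by 1.30 and 1.23, and the motor KIF2C by 0.95. SPC25 in Pfeiffer lay at 9.52, 9.55 and 9.31 with DMSO and at 9.42, 9.47 and 9.55 at 10xLCC. These values overlap, with a change of 0.02.

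**Figure D3:**
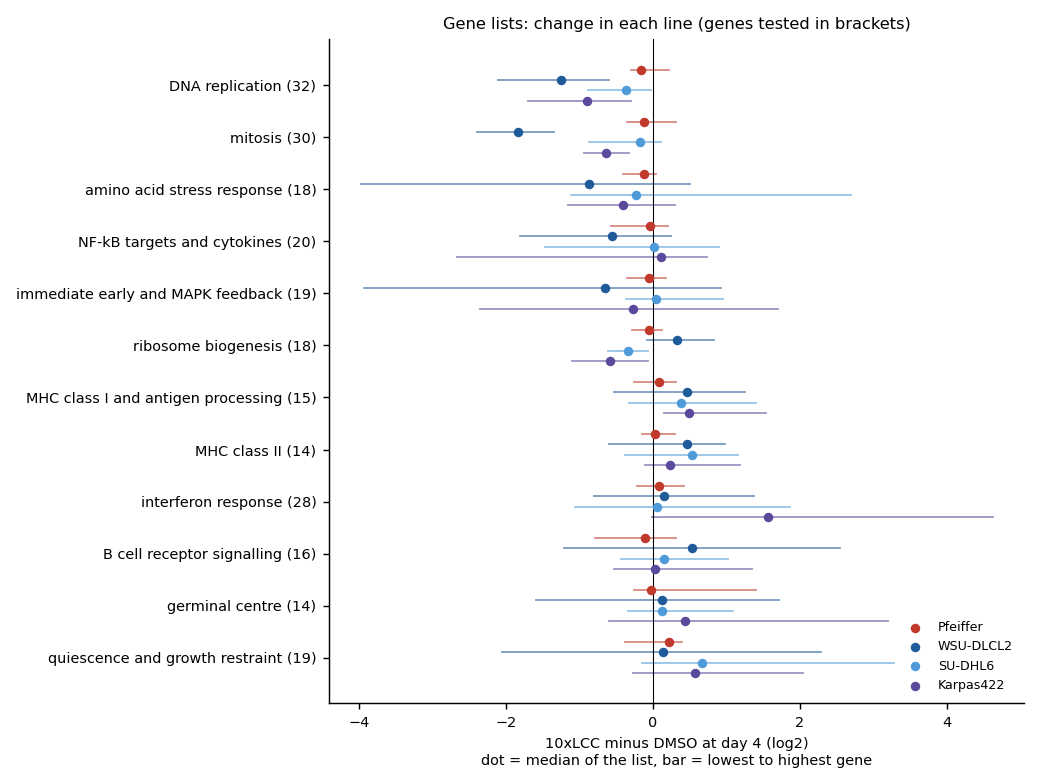
Change at day 4 (10xLCC minus DMSO, log2) of 12 gene lists in each line; dots mark the median of a list, bars run from its lowest to its highest gene, and the number of genes tested is in brackets. The Pfeiffer medians stay between -0.16 and 0.22, whereas those of mitosis reach -1.83 in WSU-DLCL2 and those of the interferon response 1.57 in Karpas422.

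Antigen presentation moved in the other direction. Of 14 MHC class II genes, whose products show peptides to helper T lymphocytes, 10 were called up in each of WSU-DLCL2 and SU-DHL6 and 7 in Karpas422. Each of WSU-DLCL2 and SU-DHL6 also had 1 called down. In Pfeiffer none was called, with 1 at an unadjusted p below 0.05, which had higher values. The difference was called lower for 10, against 7.29% of all genes, or for 6 without the 10xLCC array A of Pfeiffer and 6 with the actin ratio as a covariate. HLA-DOA, HLA-DPB1 and HLA-DQB1 differed by -0.82, -0.60 and -0.48; 3 of the 5 probe sets of HLA-DOA had a lower difference. CIITA, the activator of the class II genes, changed by 0.02 in Pfeiffer and by 0.89, 0.62 and -0.06 in WSU-DLCL2, SU-DHL6 and Karpas422. HLA genes share sequence, so their probe sets may bind related transcripts.

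Class I presentation, tested with 15 genes, gave no call in Pfeiffer (5 at an unadjusted p below 0.05, all with higher values). In WSU-DLCL2, SU-DHL6 and Karpas422 10, 8 and 12 genes rose, and 2 fell in WSU-DLCL2. The difference was called lower for 7, against 7.29% of all genes, or for 12 with arrays centred on bright genes. HLA-B was near the top of the scale in Pfeiffer, at 14.14, 14.20 and 14.06 with DMSO and 14.23, 14.18 and 14.14 at 10xLCC. The Y641 arrays ran from 11.21 to 13.07 (median 12.23) with DMSO and from 12.53 to 14.40 (median 13.02) at 10xLCC. Treated and untreated values overlapped in Pfeiffer, whose DMSO arrays lay above every Y641 DMSO array. The difference was -1.05 ± 0.10 for HLA-B (adjusted p = 3.88e-08), -0.85 for HLA-C and -0.88 for the peptide transporter subunit TAP2.

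The interferon contrast belonged to Karpas422. There, 26 of 28 interferon response genes rose with a median of 1.57, against 10.3% of all genes. In WSU-DLCL2 9 rose and 2 fell, against 15.9% and 12.3% of all genes. In SU-DHL6 3 rose and 3 fell, against 9.69% and 8.16%. None was called in Pfeiffer (5 at an unadjusted p below 0.05, all with higher values), where the median was 0.08. The difference was called lower for 17 genes, against 7.29% of all genes. It was called lower for 2 once Karpas422 was left out of the mean. RSAD2, an antiviral enzyme, lay at 4.48 to 4.55 with DMSO and at 4.37 to 4.57 at 10xLCC in Pfeiffer and differed by -1.69. IFI27, an interferon-induced mitochondrial protein, changed by 0.08 in Pfeiffer, 0.09 and 0.03 in WSU-DLCL2 and SU-DHL6, and 4.62 in Karpas422.

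Signalling genes were mixed. Of 16 B cell receptor genes, PRKCB alone was called in Pfeiffer. The difference was called lower for 5 and higher for 2, against 7.29% and 7.19% of all genes. The count of 5 was 3 without the DMSO array B or the 10xLCC array C of Pfeiffer, 8 without the 10xLCC array C of Karpas422 and 10 with arrays centred on bright genes. It was 8 without Karpas422 or SU-DHL6 in the mean and 3 without WSU-DLCL2. The kinase SYK and its adaptor BLNK differed by -0.73 and -0.91. Of 20 NF-kB targets and cytokines, 14 were called down and none up for WSU-DLCL2, 6 down and 4 up for SU-DHL6, and 4 down and 5 up for Karpas422. In Pfeiffer ICAM1, the adhesion ligand of LFA-1, fell by 0.57. Its difference from the Y641 mean was -0.03 ± 0.12. Apart from TNF, LTA and LTB, no gene of that list was called in the difference.

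Among 18 genes of the amino acid stress response, which ATF4 drives, the difference was higher for 11 and lower for DDIT4. Of all genes 7.19% were called higher and 7.29% lower. In WSU-DLCL2 15 of the 18 fell, and without that line 6 were called higher in the difference. In Pfeiffer none of the 18 was called by limma, and 5 had an unadjusted p below 0.05, all with lower values. SLC7A11, the cystine transporter, changed by -0.09 in Pfeiffer and by -3.98, -0.91 and 0.31 in WSU-DLCL2, SU-DHL6 and Karpas422. Of 19 immediate early and MAPK feedback genes, the difference was higher for 5 and lower for SPRED2, against the same shares of all genes. The count of 5 was 10 without SU-DHL6 in the mean and 3 without WSU-DLCL2. EGR1, a serum-induced transcription factor, changed by -0.13 in Pfeiffer and by -3.93, 0.54 and -2.36 in the same order of lines, a difference of 1.79 ± 0.18 (adjusted p = 9.22e-08).

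Genes of quiescence and growth restraint were mixed as well. Of 19 none was called in Pfeiffer, where the median was 0.22 and 10 had an unadjusted p below 0.05, 9 of them with higher values. In SU-DHL6 10 rose and none fell, in Karpas422 11 rose and none fell, and in WSU-DLCL2 6 rose and 5 fell. The difference was lower for 8 and higher for 2, against 7.29% and 7.19% of all genes. The count of 8 fell to 4 without the DMSO array A, the DMSO array B or the 10xLCC array B of Pfeiffer. It fell to 5 without the 10xLCC array A of Pfeiffer, without Karpas422 or with the actin ratio as a covariate. SESN3 and SESN1, inhibitors of the growth kinase mTORC1, changed by 0.38 and 0.39 in Pfeiffer, which did not pass the test, and differed by -1.73 and -1.05. TOB1, an antiproliferative protein, differed by -0.83. Of the CDK inhibitors, CDKN1A (p21) changed by -0.23 in Pfeiffer and by 0.43, 0.55 and -0.11 in WSU-DLCL2, SU-DHL6 and Karpas422, a difference of -0.52 (adjusted p = 0.0029). CDKN2A, a locus that encodes p16 and ARF, differed by 0.78 in the other direction.

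Among 11 PRC2 subunits and cofactors none was called in Pfeiffer, with 1 at an unadjusted p below 0.05, which had lower values. EZH2 changed by -0.20 in Pfeiffer and -0.42 in the Y641 mean, a difference of 0.21 ± 0.13 that was not called (adjusted p = 0.32). The recruitment factor JARID2 differed by -0.90 and the alternative catalytic subunit EZH1 by -0.46, the latter in 2 of 5 probe sets, while the accessory subunit PHF19 differed by 0.63 and the core subunit EED by 0.45. The differences of the germinal centre repressor BCL6 (-0.20), the plasma cell regulators IRF4 (-0.27) and PRDM1 (-0.21), and the metabolic regulator TXNIP (-0.30) were not called. Of 14 germinal centre genes 5 were lower and 2 higher in the difference, against 7.29% and 7.19% of all genes. The count of 5 became 3 on leaving out any of the DMSO arrays A and B or the 10xLCC arrays A, B and C of Pfeiffer, WSU-DLCL2 or Karpas422, and with the actin ratio as a covariate. Of 18 plasma cell genes 3 were lower: JCHAIN (-0.93), FCRL5 (-0.90) and CD27 (-0.38).

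The remaining lists are read against 7.19% of all genes called higher and 7.29% called lower. The difference was called for 3 of 13 cholesterol genes, all higher (FDPS, IDI1 and HMGCS1), and for 2 of 18 ribosome biogenesis genes. For the latter the lines themselves were split: 11 rose in WSU-DLCL2, 11 fell in SU-DHL6 and 16 fell in Karpas422. None of the 18 was called in Pfeiffer (3 at an unadjusted p below 0.05, all with lower values). Of 18 homeobox and developmental regulators 6 were lower, among them MEIS1 (-1.24), ID2 and ID3 (-1.04), and 1 was higher. Of 16 neuronal genes 3 were lower: ABAT, CNR1 and the ubiquitin ligase TRIM9 (-1.43). ABAT and CNR1 were chosen to be named whatever their values. The list was drawn up with earlier results of these data known, so nothing is read from this count. Among 13 death receptors and pro-apoptotic genes, BMF (-1.06) and BCL2L11 (-0.45) were lower and BID (0.61) was higher, with 4 of the 7 probe sets of BCL2L11 in that direction. By limma none of the 8 anti-apoptotic genes was called in the difference or had an unadjusted p below 0.05 in Pfeiffer; BCL2L1 differed by 0.35 (adjusted p = 0.075), XIAP by 0.17 and MCL1 by -0.14. Of 15 p53 targets 4 were lower, with TP53INP1 at -1.28, SESN1 at -1.05 and the stress sensor GADD45A at -0.91, and 2 were higher. Of 16 memory and activation genes 3 were lower and 2 higher, and of 15 homing receptors 3 were lower and 1 higher. CCR7, the lymph node homing receptor, differed by -1.20, with 2.94 in SU-DHL6 and -1.05 in WSU-DLCL2, and this call was lost without SU-DHL6 (-0.10, adjusted p = 0.86). Leaving Karpas422 out of the mean likewise ended the calls of JCHAIN, ID3, GADD45A, FDPS and HMGCS1, and leaving out WSU-DLCL2 that of CD27 and of the cystine transporter gene SLC7A11.

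Of the 36 genes that rose in Pfeiffer, 17 were also called up in the Y641 mean, 15 were not called there and 4 were called down. Of all genes, 16.7% were called up and 17.3% down in that mean. All 36, and all 13 that fell, had separate DMSO and 10xLCC arrays in Pfeiffer, as did 20.2% of all genes; the genes were called on these same arrays, so nothing is read from this. RCSD1, a binding partner of the actin capping protein, rose most: Pfeiffer had 5.88, 5.59 and 5.96 with DMSO, 6.37, 6.46 and 6.34 at LCC, and 7.28, 7.07 and 7.43 at 10xLCC. These ranges did not overlap. Its change was 1.45 ± 0.13 (adjusted p = 4.56e-07) and that of the Y641 mean 0.34, a difference of 1.10 that 1 of its 2 probe sets gave. The Y641 arrays with DMSO lay at 9.56 to 10.45, so RCSD1 stayed lowest in Pfeiffer after the rise.

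STAP1, an adaptor of B cell receptor signalling on the germinal centre list, had the same shape. It measured 5.74, 5.55 and 5.44 with DMSO, 6.01, 6.19 and 6.00 at LCC, and 6.99, 6.86 and 7.10 at 10xLCC in Pfeiffer, against 10.40 to 11.88 on the Y641 DMSO arrays. The change of 1.41 ± 0.14 (adjusted p = 2.64e-06) came with a difference in response of 1.24, positive in both probe sets. Neither gene reached the level of the Y641 lines.

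KLRC3 and KLRC4, neighbouring genes of the NKG2 family of natural killer cell receptors, rose by 1.15 and 1.07 in Pfeiffer. KLRC3 went from 6.31, 5.83 and 6.07 to 7.13, 7.18 and 7.36 there, while the Y641 arrays stayed between 3.16 and 3.66 under both treatments. The KLRC genes are near-identical copies, and their probe sets may share transcripts. CTXN3, a small membrane protein of neural tissue, rose by 0.98 (5.68, 5.65 and 5.56 to 6.55, 6.39 and 6.89), with a Y641 mean of -0.04. ANKRD7 rose by 1.08 and CARD16, an inhibitor of caspase-1, by 0.99, and neither differed from the Y641 mean by the test (0.24 and 0.21).

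DSP, which encodes the desmosomal plaque protein desmoplakin, fell most in Pfeiffer. It lay at 6.93, 6.58 and 7.03 with DMSO, 6.20, 6.50 and 6.70 at LCC, and 5.51, 5.46 and 5.33 at 10xLCC. The DMSO and 10xLCC arrays were well apart, with a change of -1.41 ± 0.14 (adjusted p = 2.64e-06). The Y641 arrays lay between 4.43 and 5.29. The neuronal gene PNMA8A fell by 0.74 and the tubulin gene TUBB6 by 0.65. CD101 (-0.66) and the giant muscle protein gene TTN (-0.69) also fell, and their differences, -0.69 for each, had that sign in 1 of 2 and 4 of 6 probe sets.

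**Figure D4:**
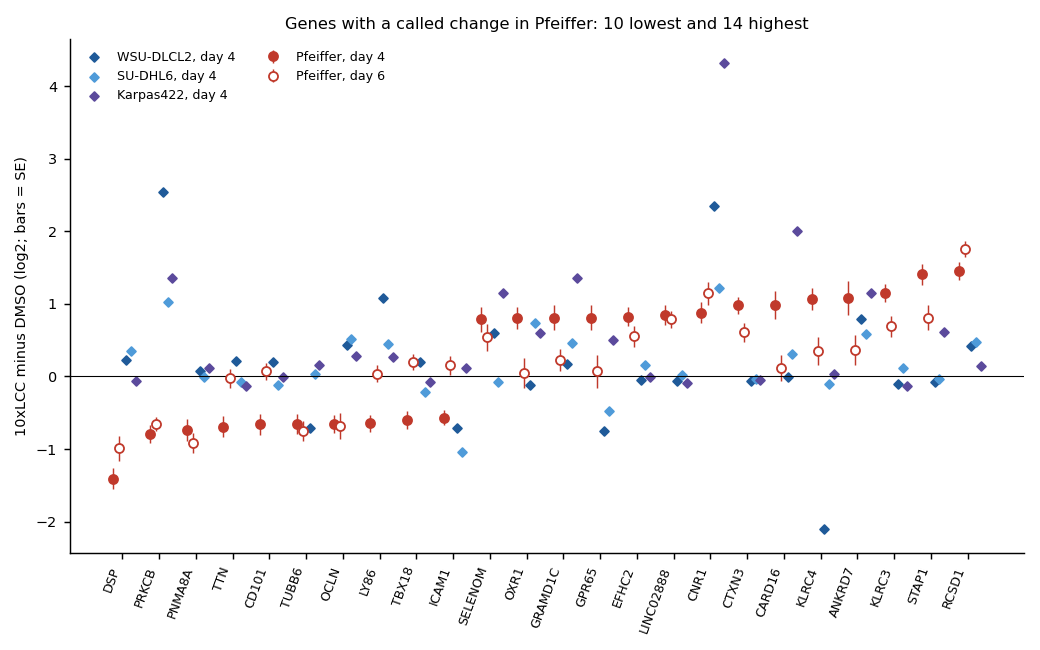
Change (10xLCC minus DMSO, log2) of the 10 lowest and 14 highest of the 49 genes called in Pfeiffer at day 4, with Pfeiffer at day 4 (filled circles), Pfeiffer at day 6 (open circles) and the 3 Y641 lines at day 4 (diamonds); bars are SE. RCSD1, STAP1 and DSP moved the same way at day 6, and all 3 Y641 lines lie on the other side of 0 from Pfeiffer for PRKCB.

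In 8 genes the called directions were opposite: 4 of the 36 that rose in Pfeiffer (11.1%) and 4 of the 13 that fell (30.8%). Of all genes 17.3% were called down and 16.7% up in the Y641 mean, so nothing is read from the count of 8. PRKCB, LY86, OCLN and ADA2 fell in Pfeiffer and rose in the Y641 mean. PRKCB in Pfeiffer went from 7.24, 7.31 and 7.11 with DMSO through 6.66, 6.86 and 7.15 at LCC to 6.41, 6.46 and 6.42 at 10xLCC. It went up from 6.73, 6.96 and 7.14 to 9.29, 9.63 and 9.53 in WSU-DLCL2, from 8.19, 8.30 and 8.39 to 9.34, 9.41 and 9.21 in SU-DHL6, and from 8.51, 8.34 and 8.43 to 9.83, 10.00 and 9.50 in Karpas422. The DMSO and 10xLCC arrays were separate in every line. The change was -0.79 ± 0.12 in Pfeiffer (adjusted p = 0.0020) and 1.64 ± 0.07 in the Y641 mean, the difference was -2.43 ± 0.14 (adjusted p = 1.88e-11), and all 6 probe sets gave a lower difference.

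LY86, which pairs with the Toll-like receptor relative CD180, changed by -0.65 in Pfeiffer and by 1.08, 0.44 and 0.27 in WSU-DLCL2, SU-DHL6 and Karpas422, the last not called. OCLN, a tight junction protein, changed by -0.65 in Pfeiffer and 0.41 in the Y641 mean. ADA2, a secreted adenosine deaminase, changed by -0.49 in Pfeiffer; it rose in WSU-DLCL2 and Karpas422 and changed by -0.06 in SU-DHL6. Their differences were -1.24, -1.06 and -1.10.

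KLRC4, PTPN22, BNIP3 and DNAJC15 rose in Pfeiffer and fell in the Y641 mean. KLRC4 sat low on the array, at 4.43, 4.12 and 4.73 with DMSO and 5.69, 5.29 and 5.51 at 10xLCC in Pfeiffer. In WSU-DLCL2 it fell from 5.88, 5.54 and 5.56 to 3.59, 3.65 and 3.42, and in SU-DHL6 and Karpas422 all arrays lay between 3.14 and 3.74 and overlapped. PTPN22, a phosphatase that restrains antigen receptor signalling, went from 6.63, 6.63 and 6.61 to 7.25, 7.27 and 7.49 in Pfeiffer, a change of 0.71, and by -0.70, -0.67 and 0.15 in WSU-DLCL2, SU-DHL6 and Karpas422. BNIP3, a mitophagy receptor, rose by 0.62 and differed by 0.96. Its fall in the Y641 mean was clear only in WSU-DLCL2, from 11.65, 11.84 and 11.72 to 11.06, 10.69 and 10.89. In SU-DHL6 its arrays overlapped, as they did in Karpas422, where they lay low, at 3.45 to 4.21. DNAJC15, a mitochondrial chaperone, rose by 0.54 and differed by 0.73, a sign that 1 of its 3 probe sets gave; the mean of the 3 had 0.05 (adjusted p = 0.84). Against SU-DHL6 singly, neither BNIP3 (0.48, adjusted p = 0.14) nor DNAJC15 (0.36, adjusted p = 0.22) differed by the test.

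Only APLN, CNR1, ID1 and TP53INP1 were called up in all 4 lines, and no gene was called down in all 4. CNR1, the cannabinoid receptor CB1, lay at 5.15, 5.17 and 5.11 with DMSO and 6.43, 5.96 and 5.66 at 10xLCC in Pfeiffer. It went from 7.60, 7.69 and 7.95 to 9.81, 10.23 and 10.25 in WSU-DLCL2, from 10.36, 10.39 and 10.40 to 11.60, 11.54 and 11.66 in SU-DHL6, and from 5.79, 6.00 and 5.80 to 10.28, 10.14 and 10.13 in Karpas422. All 4 rises were clear of the DMSO arrays, and that in Pfeiffer, 0.88 ± 0.14 (adjusted p = 0.0036), was the smallest, with a difference of -1.75. The E protein inhibitor ID1 changed by 0.60 in Pfeiffer and 1.27 in the Y641 mean. TP53INP1, a stress-induced autophagy protein, changed by 0.62 and 1.90, and 1 of its 3 probe sets gave the lower difference. APLN, the ligand of the apelin receptor, changed by 0.73 and 0.80, a difference of -0.07 ± 0.15.

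Arrays of days 2 and 6, none of which enter the day 4 values, gave the same measure again. At day 6 the difference was called lower for 256 of the 261 genes lower by at least 1 at day 4 (13.5% of all genes were called lower) and called higher for 95 of the 101 higher genes (16.7% of all genes). The sign was that of day 4 for all 261 and for 99 of 101, where 41.7% of all genes lay below 0 and 58.3% above. RNA integrity was uneven at day 6: the actin ratio reached 2.72 in Karpas422 and 0.44 in SU-DHL6, and its part in the counts was not tested. Against WSU-DLCL2 alone, whose day 6 ratios were -0.21 to -0.04 beside -0.15 to 0.01 in Pfeiffer, the counts were 229 and 90.

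At day 2, 157 of the 261 genes were called lower (1.90% of all genes) and 13 of the 101 were called higher (0.237%), while 260 and 99 had the same sign as at day 4 (47.4% of all genes were below 0 and 52.6% above). The DMSO arrays A of Pfeiffer and SU-DHL6 stood farthest from their groups that day; without them the called counts were 204 and 34. The median difference of the lower genes was -0.71 at day 2, -1.24 at day 4 and -1.43 at day 6, and that of the higher genes was 0.38, 1.12 and 1.23. Both sets were picked by their day 4 differences, which favours large day 4 values, so no course over days is read from these medians. ABAT differed by -1.35 at day 2 and -3.10 at day 6, PRKCB by -1.38 and -3.00, and TNF by 0.99 and 2.43. The immunoglobulin variable gene had 0.05 at day 2 and 0.14 at day 6. All 32 DNA replication genes and all 30 mitosis genes were called higher at day 6, with 3 and none of them at day 2.

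**Figure D5:**
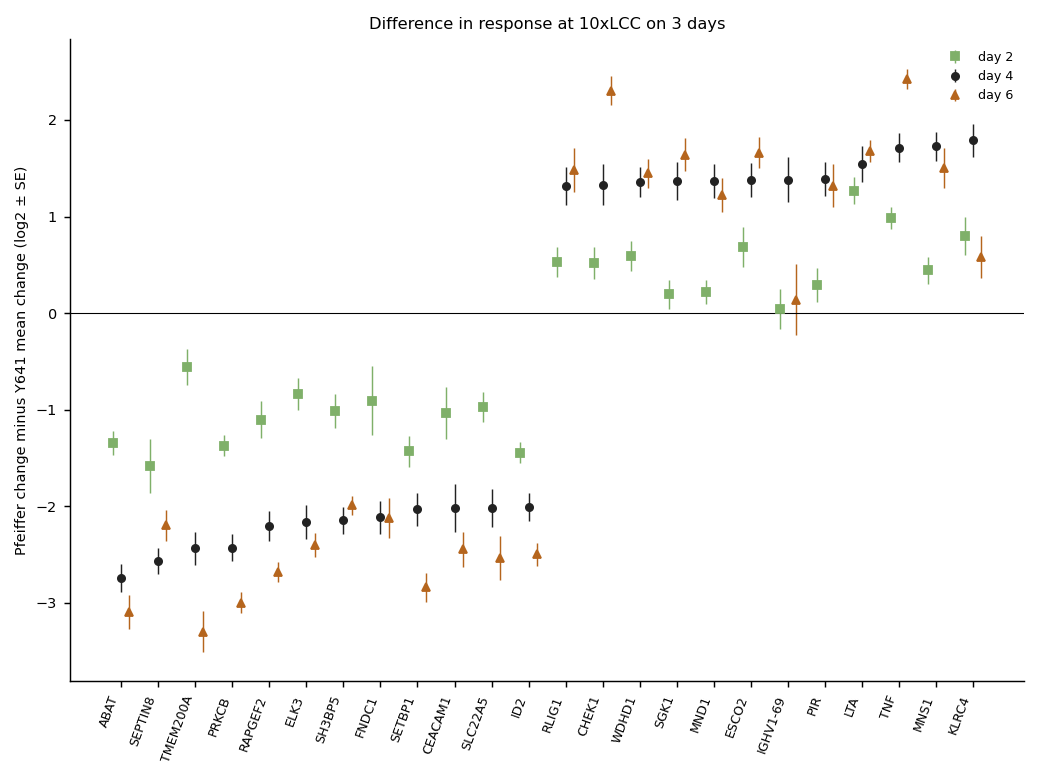
Difference in response (Pfeiffer change minus the mean change of the Y641 lines at 10xLCC, log2 ± SE) at days 2, 4 and 6 for the 12 largest negative and 12 largest positive differences at day 4 among genes outside the range of the Y641 lines. Signs agree on all 3 days, day 2 values are closer to 0 than those of day 4, and the immunoglobulin variable gene is near 0 on both other days. The genes were picked by their day 4 values, so no course over days is read.

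The genes called in Pfeiffer repeated less. Of the 36 that rose, 12 were called up at day 6 (1.17% of all genes) and 32 had the same sign (55.7%); of the 13 that fell, 4 were called down (0.258%) and 8 had the same sign (44.3%). At day 2, 1 of the 36 and none of the 13 were called (0.0105% and 0.00527% of all genes, limma), while 13 and 4 had an unadjusted p below 0.05; the calls were 2 and none without the DMSO arrays A of Pfeiffer and SU-DHL6. RCSD1 changed by 1.75 in Pfeiffer at day 6, STAP1 by 0.81, CNR1 by 1.14, TP53INP1 by 1.28, DSP by -0.99 and PRKCB by -0.65, all called. LY86, BNIP3, DNAJC15 and APLN changed by 0.04, -0.04, 0.02 and 0.00 at day 6.

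The LCC arrays of day 4 share their DMSO arrays with the 10xLCC comparison, so values are given side by side only. At LCC and 10xLCC the difference was -1.93 and -2.74 for ABAT, -1.54 and -1.75 for CNR1, 1.52 and 1.71 for TNF, and 0.82 and 1.20 for MCM10. In Pfeiffer itself the change at LCC and 10xLCC was 0.58 and 1.45 for RCSD1, 0.49 and 1.41 for STAP1, -0.38 and -1.41 for DSP, and -0.33 and -0.79 for PRKCB.

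Levels without EPZ6438 were read on the DMSO arrays of day 2, which do not enter the day 4 changes. Of the 261 genes lower by at least 1, 141 were higher and 72 lower in Pfeiffer than in the Y641 mean, against 18.6% and 19.5% of all genes; of the 101 higher genes, 18 were higher and 59 lower. Without the DMSO arrays A of Pfeiffer and SU-DHL6 these counts were 155, 79, 24 and 61. The median level of the 261 genes was 0.51 higher in Pfeiffer and that of the 101 genes 0.40 lower. Among genes that rose in Pfeiffer, 20 of 36 were higher and 11 lower there with DMSO, the latter including STAP1 (-5.47), RCSD1 (-3.63) and PTPN22 (-2.53).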

How the data were processed

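The deposited values are linear probe set intensities that the authors made with GCRMA, per the submitters' processing notes; no source used here gives a version. Background correction and quantile scaling by GCRMA can compress low signals, and the number of arrays limits the precision. Here the intensities were taken to log2 with a pseudocount of 0. Groups came from sample titles. Of 54675 probe sets, 41097 name 1 gene, 1801 several and 11777 none in the platform annotation; only the first kind was used, with the brightest over the 24 arrays standing for a gene (10523 genes have several). Genes with log2 of at least 4 on at least 3 arrays were tested with limma 3.58.1 (lmFit, eBayes, 16 residual degrees of freedom) in R 4.3.3, two-sided, with Benjamini-Hochberg adjustment over 18979 genes. The fit was tested on simulated data. Days 2 and 6, LCC and the DMSO arrays of day 2 were fitted separately on the same genes. Named genes were the 12 largest differences each way outside the range of the Y641 lines, the 8 largest changes each way in Pfeiffer, those called alike in all lines or in opposite directions, up to 3 of each list by p, and 9 chosen genes; others serve as examples chosen after their values were seen. The comparison and the lists were chosen with earlier results of these data known. No pair of arrays held identical values. Arrays with the same letter were not treated as pairs: in 12 such pairs their deviations correlated from -0.34 to 0.46, over 0.1 in 3. These ran from 0.01 to 0.46 in WSU-DLCL2 and from 0.02 to 0.11 in SU-DHL6. In Karpas422 they ran from -0.21 to -0.02 and in Pfeiffer from -0.34 to -0.14. Pairing within single lines was not tested.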

Additional observations from a re-analysis of the deposited data

Results flagged for a closer look

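The response differed between Pfeiffer and the mean of the Y641 lines, by a test of the difference itself, for 2747 genes, which are the subject of the report. In the Y641 mean 16.7% of all genes were called up and 17.3% down, so nothing is read from the next count. Among the 2747 genes, 8 were also called in opposite directions in Pfeiffer and in the Y641 mean. Their differences were -2.43 for PRKCB, -1.24 for LY86, -1.1 for ADA2 and -1.06 for OCLN, which fell in Pfeiffer, and 1.79 for KLRC4, 1.12 for PTPN22, 0.96 for BNIP3 and 0.73 for DNAJC15, which rose there. With 3 arrays a group, no test for an outlying value of a single gene was made; whole arrays are covered by their distance from the group and by leaving each out.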

How the results depend on the processing

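The number of genes called in the difference stayed within 1.5 times of 2747 under 12 other settings, and lay between 2069 and 3176 when each of 24 arrays was left out. The 49 genes of Pfeiffer became 115 with all arrays of the series in the fit, 137 with the 36 day 4 arrays, 120 after centring on bright genes and 81 with the trend and robust options of limma. They became 11 without its DMSO array B, 24 without C and 86 without A, and 25, 31 and 19 without its 10xLCC arrays A, B and C; 31 and 32 without the Karpas422 DMSO arrays A and C, 125 and 149 without its 10xLCC arrays A and C, 31 without the SU-DHL6 10xLCC array B and 31 without the WSU-DLCL2 DMSO array C. Leaving out arrays gave 4548 to 5845 genes for WSU-DLCL2, 2549 to 4012 for SU-DHL6, 4028 to 5073 for Karpas422, which had 3205 when fitted alone, and 6101 to 6638 for the Y641 mean. With the letters as a replicate block within lines, 2491 differences (1159 higher, 1332 lower) and 38 Pfeiffer genes were called. Of 110 named genes, 97 were called in the difference, and 70 of these kept their call and direction in every setting. Without WSU-DLCL2 the difference became 0.0094 for APLN, -0.17 for CARD16, -0.28 for CD69 and -0.0388 for CDKN2D; without Karpas422 it became 0.0208 for IFI27, 0.029 for MCL1, 0.0667 for PRDM1 and 0.36 for TNFRSF21. It was 0.023 for APLN without the DMSO array A of Pfeiffer, -0.015 for CARD16 without SU-DHL6, and -0.042 for CARD16 and 0.23 for MCL1 with the mean of all probe sets of a gene. The mean of probe sets also ended the calls of BCL2L11, BID, CD101, CDKN2D, DNAJC15, EZH1, HLA-DOA, HMGCS1, ITGB1, TAP2, TTN and WDR12, and that of TUBB6 ended without any of 15 arrays. Leaving 1 line out of the mean ended the calls of BCL2L11, CCR7, ID1, ITGB1 and TUBB6 (SU-DHL6), CD27, FOS, SGK1 and SLC7A11 (WSU-DLCL2), and FDPS, GADD45A, HMGCS1, ID3, JCHAIN, MRTO4, MX2, TUBB6 and WDR12 (Karpas422). The cause of these moves was not tested. The settings for days 2 and 6 were chosen after seeing the data.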
